A study of Bos taurus with 17 samples.

Results

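The hyaluronan matrix that forms around the oocyte during cumulus expansion was examined through 9 of its genes. These were the synthase HAS2 and the matrix proteins TNFAIP6, PTX3, ITIH2, CSPG2 (versican, VCAN) and HAPLN1. The others were the hyaluronan receptor CD44, the cell surface proteoglycan SDC4 and the protease ADAMTS1. Together they are 9 of 15869 distinct gene symbols that the array's probes could be given, and 10 of its 21475 probes without controls report them. The probes were found by the gene name or the description in the array's design, except that of HAPLN1, which was found through its RefSeq accession. HAS2 had 2 probes and each other gene 1. Of these 10 probes, 6 were valid, that is, detected on 80% or more of the arrays at NC1, at C1 and at C2 alike, among 13865 valid probes in all. The 6 stand for HAS2, TNFAIP6, PTX3, CSPG2, SDC4 and ADAMTS1.

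Cumulus cells, the somatic cells that surround the oocyte, were collected from cow and calf ovaries at 3 stages, with 1 array for each of 17 samples. NC1 were compact cumulus cells of 6 prepubertal calves aged 3 to 6 months, around prophase I oocytes that were developmentally incompetent or poorly competent. C1 were compact cumulus cells around developmentally competent prophase I oocytes of 6 adult cows of different ages, and both groups were recovered from ovaries after slaughter. C2 were expanded cumulus cells around developmentally competent metaphase II oocytes of 5 Holstein adult cows that were not lactating, aged 3 to 5 years. These cows were synchronized with a progestagen, superovulated with FSH and LH, given prostaglandin and sampled in vivo by ovum pick-up. Thus C1 and NC1 differ in age. C2 differs from C1 in meiotic stage of the oocyte, hormone treatment, follicle size and way of collection as well as in expansion. Breed and lactation are given for C2 alone. Against NC1, C2 differs in all of these and in age. The parts of these cannot be told apart. The samples carry "ovarian follicles" as their tissue label, while the treatment protocol describes cumulus cells taken off the oocytes.

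During ovulation, the gonadotropin surge leads cumulus cells to make hyaluronan, a long unbranched sugar chain, which swells and pushes the cells apart. HAS2 spins the chain out through the cell membrane. TNFAIP6 transfers heavy chains of inter-alpha-inhibitor, among them the protein of ITIH2, onto hyaluronan, PTX3 binds those heavy chains and ties the strands together, versican and the link protein HAPLN1 lie along the chain, and ADAMTS1 cuts versican. CD44 holds hyaluronan at the cell surface.

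The deposited table of normalized values gives the probe sequences of the 6 valid members, each 60 bases long. Their last 30 bases are shown so that a reader can tell which stretch of a transcript each value stands for; capitals mark AATAAA, the hexamer of the common polyadenylation signal, searched as the table writes the probe and not on the other strand.
HAS2: tcatgatagaaagAATAAAatgtttctctc
TNFAIP6: aatgcaagtactacaagtactacttctact
PTX3: gttactagattttatgccatggtgctttca
CSPG2: gaagcatacataAATAAAtgaagtaagctc
SDC4: acctcacattgttgtctgttactgattttt
ADAMTS1: ttcctcctaatgtaagccaacttaaggaat
The hexamer was in the printed part of the HAS2 and CSPG2 probes. Of the 15239 probes of 60 bases in the table, 12.2% held it in their last 30 bases. The G and C content of the 6 whole probes lay between 35.0% and 45.0%, and the median of those 15239 probes was 43.3%.

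Of the 6 valid member probes, 5 were higher at C2 than at C1 (adjusted p under 0.01, limma), and 4 of them were also higher at C2 than at NC1. Of the 13865 valid probes, 15.3% were higher and 12.8% lower at C2 against C1, and 15.5% were higher and 12.6% lower at C2 against NC1. The median difference of the 6 was 3.07 on the log2 scale for C2 against C1, where that of all valid probes was 0.02, and 2.47 for C2 against NC1, where that of all valid probes was 0.11. TNFAIP6 had the 7th largest rise of the valid probes at C2 against C1 and the largest at C2 against NC1. PTX3 ranked 38th, ADAMTS1 147th, HAS2 395th and SDC4 870th at C2 against C1. CSPG2 did not pass the test in any comparison. Over the 3 stages at once, 5 of the 6 passed the moderated F test, as did 28.6% of all valid probes. HAS2 missed the threshold in the methods' one-factor test (adjusted p = 0.0123), and in a one-factor test with unequal spreads HAS2 (adjusted p = 0.0435) and SDC4 (adjusted p = 0.0171) did, which left 3 of the 6. The C2 group is shared by both comparisons, so they are not independent of each other.

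**Figure D1:**
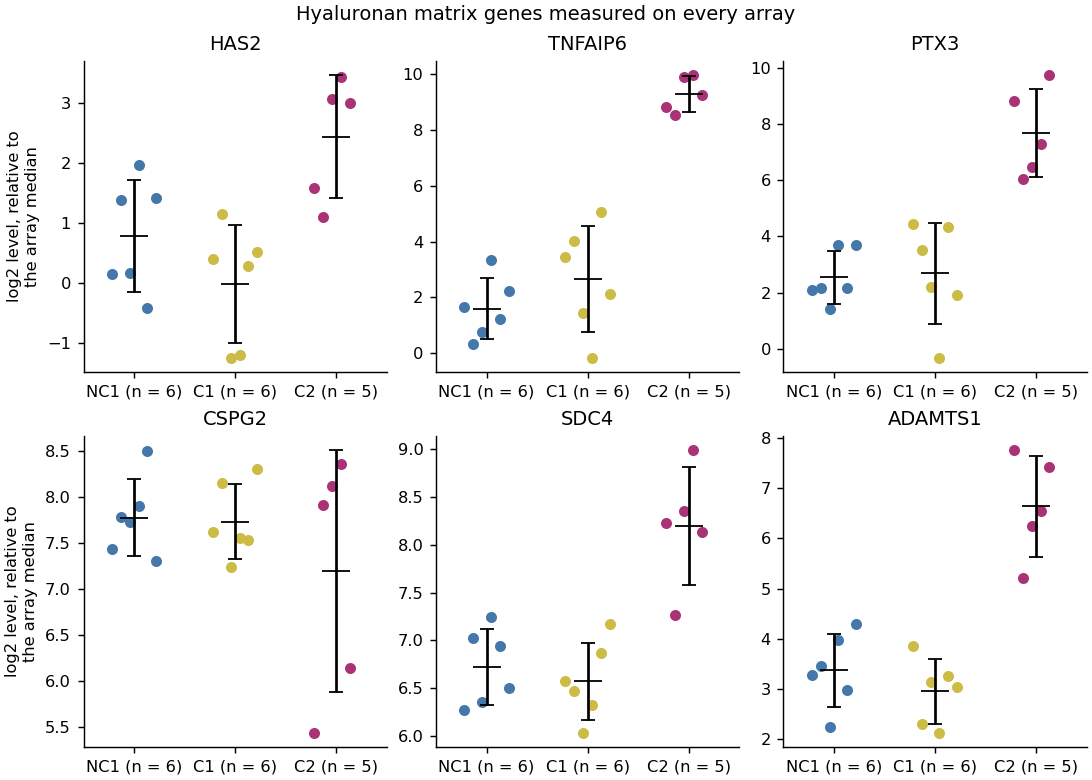
Log2 level of the 6 valid member probes relative to the median of each array, by stage, with 1 point per array and bars at the mean ± SD; each panel has its own scale. The 5 C2 arrays lie above the 12 compact arrays for TNFAIP6, PTX3, SDC4 and ADAMTS1, overlap them for HAS2, and spread over 2.92 log2 units for CSPG2.

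Levels below are log2 signals minus the median of the array, so that 0 is the level of the median probe and 1 unit is a doubling; differences are between such levels. HAS2, the synthase, ranged at NC1 from -0.42 to 1.98 with a median of 0.77. At C1, it ranged from -1.25 to 1.15 with a median of 0.34. C2 replicates 1 to 5 had levels of 1.58, 1.1, 3.08, 3.43 and 3.01. Replicates 3, 4 and 5 stood above all compact arrays, whereas replicates 1 and 2 lay within the range of NC1, and replicate 2 also within that of C1. The rise at C2 against C1 was 2.46 ± 0.53 on the log2 scale (SE, n = 5 and 6 arrays), or 5.50-fold, with an adjusted p of 0.00123 and an exact permutation p of 0.00866, 2-sided. Against NC1, the difference was 1.66 ± 0.53 and missed the threshold (adjusted p = 0.0186), which it passed without C2 replicate 2 (1.99, adjusted p = 0.00612). Within the scan days of the arrays, the C2 minus C1 difference was 1.50 on the first day and 3.69 on the second.

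A second HAS2 probe, described in the array's design as similar to hyaluronan synthase 2 under a gene number that has no RefSeq match here, was not valid. It was well above background on 3 of 6 NC1, 1 of 6 C1 and 3 of 5 C2 arrays, and its levels ranged from -4.69 to -2.33 at NC1, from -6.03 to -4.74 at C1 and from -4.37 to -2.30 at C2. With so few values above background, no size is given for its differences between stages. In the same fit run over all 21475 probes, where 11.2% were higher at C2 against C1, C2 against C1 passed the threshold (adjusted p = 0.00288), but not without C2 replicate 3 (adjusted p = 0.0106). C2 against NC1 did not pass (adjusted p = 0.809), and the C2 levels overlapped those of NC1. C1 against NC1 did not pass either (adjusted p = 0.0442), where 0.116% of the probes did. As for the first probe, C2 replicates 3, 4 and 5 were the highest of their stage.

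TNFAIP6, whose product forms the covalent links between heavy chains and hyaluronan, showed the most marked rise of the members. Its level ranged from 0.32 to 3.36 at NC1, with a median of 1.44, and from -0.16 to 5.06 at C1, with a median of 2.79. C2 replicates 1 to 5 had levels of 8.83, 8.53, 9.90, 9.96 and 9.24. The lowest C2 array was more than 3 log2 units above the highest compact array, and the spread between the C2 arrays (SD 0.64) was smaller than that between the C1 arrays (SD 1.90). The rise was 6.63 ± 0.73 against C1, or 99.3-fold (adjusted p = 1.11e-06), and 7.70 ± 0.73 against NC1, or 207-fold (adjusted p = 1.93e-07). Each exact permutation p was 0.00433, the smallest that 5 arrays against 6 allow. Among all valid probes, 10.7% had every C2 array above every C1 array, and 10.6% had every C2 array above every NC1 array. The difference of the stage means, C2 minus C1, was above 3 for 1.86%. That is a looser measure than the gap between single arrays, whose share was not counted.

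PTX3, the pentraxin that cross-links the heavy chains, ranged from 1.42 to 3.70 at NC1, with a median of 2.18, and from -0.31 to 4.43 at C1, with a median of 2.87. C2 replicates 1 to 5 had levels of 8.80, 6.05, 6.48, 7.28 and 9.73. All 5 thus lay above every compact array, with replicates 1 and 5 the highest. The rise was 4.98 ± 0.79 against C1, or 31.6-fold (adjusted p = 6.51e-05), and 5.12 ± 0.79 against NC1, or 34.8-fold (adjusted p = 5.05e-05).

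CSPG2, the large chondroitin sulfate proteoglycan that binds hyaluronan, split the C2 arrays. Its probe is described as versican under the accession of an expressed sequence tag. The level ranged from 7.30 to 8.50 at NC1, with a median of 7.75, and from 7.24 to 8.30 at C1, with a median of 7.58. C2 replicates 1 to 5 had levels of 5.44, 7.91, 8.12, 8.36 and 6.15. Replicates 1 and 5 were below all 12 compact arrays, and replicates 2, 3 and 4 were within their range. The mean difference was -0.54 ± 0.43 at C2 against C1 (adjusted p = 0.342, exact permutation p = 0.372) and -0.58 ± 0.43 against NC1 (adjusted p = 0.304). Within scan days, C2 minus C1 was -1.32 on the first day, which held replicates 1, 2 and 5, and 0.59 on the second, so the sign of the mean difference did not hold within both. Without C2 replicate 1, the difference from C1 shrank to -0.10, and with array weights it was -0.97 (adjusted p = 0.0532).

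The samples with low CSPG2 differed in other ways. Over all valid probes, C2 replicates 1 and 5 resembled each other (SD of the log2 differences 0.444), as did replicates 3 and 4 (0.512), while the other pairs of C2 arrays differed by 1.05 to 1.27. Pairs within NC1 differed by 0.431 to 0.694 and pairs within C1 by 0.453 to 0.756. The summed signal of 8 granulosa and cumulus marker genes, in units of the array median, was 1277 and 1205 in C2 replicates 1 and 5, and 2832, 4266 and 4432 in replicates 2, 3 and 4. It adds linear signals, so bright genes such as INHA and INHBA weigh most. At C2, the log2 level of INHBA ranged from 6.94 to 10.8 and that of CYP19A1 from -3.74 to 2.43. FOXL2 ranged only from 5.02 to 5.37 and FSHR from 1.62 to 2.83. The summed signal of 8 leukocyte markers was 25.8 and 34.4 in replicates 1 and 5, and 6.93, 15.7 and 15.6 in replicates 2, 3 and 4. That of the 5 listed versican-cleaving proteases other than ADAMTS1 was 2.93 and 3.17 in replicates 1 and 5, and 34.5, 79.2 and 77.1 in replicates 2, 3 and 4, against 3.68 to 5.27 at C1 and 4.99 to 5.50 at NC1. Thus the C2 arrays with low CSPG2 also had the lowest sums of these proteases and of the granulosa markers, and the highest of the leukocyte markers. The protease sums split through ADAMTS4 and ADAMTS9. ADAMTS15 went the other way, at log2 levels of -0.32 and -0.21 in replicates 1 and 5. In replicates 2, 3 and 4, it was at -1.16, -1.76 and -1.52. ADAMTS20, which was not valid, was also highest in replicates 1 and 5, and so was ADAMTS1, which the sum leaves out. The part of these differences in the CSPG2 levels was not tested. With replicates 1 and 5, and 3 and 4, averaged to 1 sample each, the same 5 and 4 member probes passed the test against C1 and NC1, and CSPG2 differed by -0.42 against C1 (adjusted p = 0.488).

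**Figure D2:**
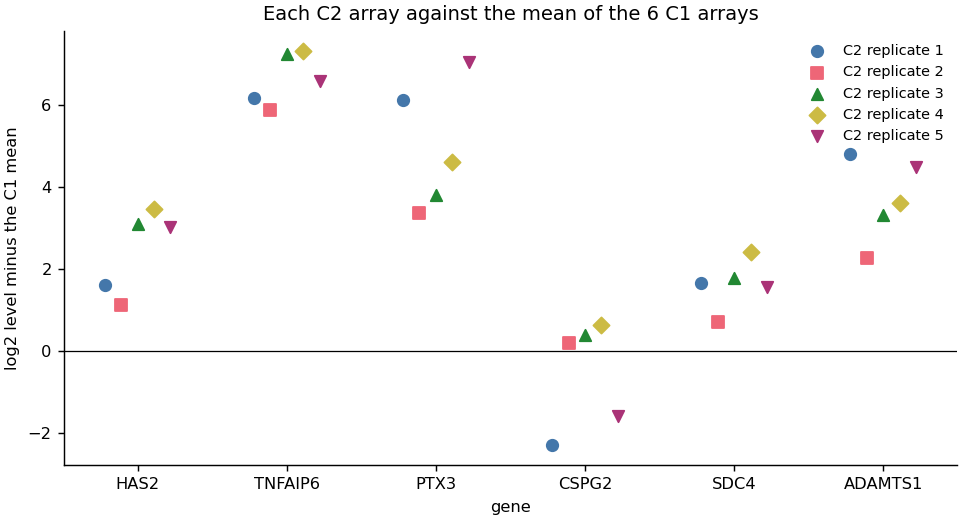
Difference of each C2 array from the mean of the 6 C1 arrays (y axis, log2 units) for the 6 valid member probes, with 1 marker per C2 replicate. CSPG2 is below the C1 mean in replicates 1 and 5, whose PTX3 and ADAMTS1 are the highest of the 5, while replicate 2 is the lowest for each of the other 5 genes.

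SDC4, a transmembrane heparan sulfate proteoglycan of the cell surface, ranged from 6.27 to 7.24 at NC1, with a median of 6.72, and from 6.03 to 7.17 at C1, with a median of 6.52. C2 replicates 1 to 5 had levels of 8.23, 7.27, 8.36, 8.99 and 8.14. The C2 arrays did not overlap the compact ones, although replicate 2 came close to them. The rise was 1.62 ± 0.28 against C1, or 3.08-fold (adjusted p = 0.000133), and 1.48 ± 0.28 against NC1, or 2.78-fold (adjusted p = 0.00035).

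ADAMTS1, the secreted protease that cleaves versican in the matrix, ranged from 2.23 to 4.30 at NC1, with a median of 3.36, and from 2.13 to 3.86 at C1, with a median of 3.08. C2 replicates 1 to 5 had levels of 7.76, 5.22, 6.25, 6.55 and 7.43. All 5 lay above every compact array, and the highest were again replicates 1 and 5. The rise was 3.69 ± 0.44 against C1, or 12.9-fold (adjusted p = 2.58e-06), and 3.27 ± 0.44 against NC1, or 9.65-fold (adjusted p = 1.05e-05).

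The 17 arrays lay on 6 slides that mixed the stages, so C2 can be set against C1 and NC1 within each of the 5 slides with a C2 array. C2 exceeded C1 on 5 of 5 slides for HAS2 (by 0.82 to 4.69), TNFAIP6 (3.46 to 10.1), PTX3 (1.70 to 6.89), SDC4 (0.40 to 2.96) and ADAMTS1 (1.97 to 4.72). Against NC1, C2 was higher on 5 of 5 slides for the same genes except HAS2, with 4 of 5 (-0.28 to 3.43). CSPG2 was higher at C2 than at C1 on 3 of 5 slides, with differences from -2.86 to 1.11. Thus the direction of the 5 rises against C1 held on each slide, and their size varied widely.

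**Figure D3:**
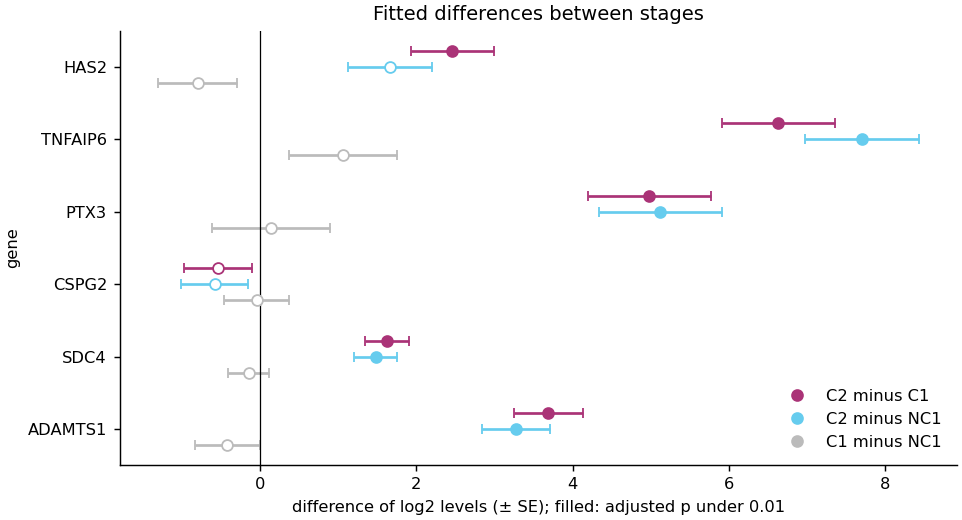
Fitted differences of log2 levels between stages (x axis) for the 6 valid member probes, with bars at ± SE and filled symbols where the adjusted p is under 0.01. The 5 rises at C2 against C1 run from 1.62 for SDC4 to 6.63 for TNFAIP6, and none of the C1 minus NC1 differences is filled.

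The remaining members were at or near background, so their levels are bounds at most. CD44, the principal hyaluronan receptor of many cells, was not well above background on any NC1 or C1 array and was so on 1 of 5 C2 arrays, replicate 5, where its level was -3.66. On the other C2 arrays, it lay between -5.64 and -4.99, within the range of NC1 (-6.02 to -4.34). The C1 levels were lower, from -6.87 to -5.54. In the fit over all probes, C2 against C1 of CD44 did not pass (adjusted p = 0.0256). ITIH2 was well above background on 1 of 6 NC1, 0 of 6 C1 and 1 of 5 C2 arrays, with levels from -7.01 to -2.18 over the 17 arrays. No lower limit of a fold above 1 could be set for CD44 or ITIH2 between any stages. HAPLN1, named CRTL1 in the array's design and matched through its RefSeq accession, was well above background on 1 of 6 NC1, 4 of 6 C1 and 2 of 5 C2 arrays. C2 against C1 did not pass in the fit over all probes (adjusted p = 0.735), and no size is given. Its 2 C2 arrays above background were replicates 1 and 5, at -2.92 and -2.66. In the RefSeq gene table (assembly ARS-UCD2.0), VCAN and HAPLN1 are neighbours on chromosome 7 with no gene listed between them.

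**Figure D4:**
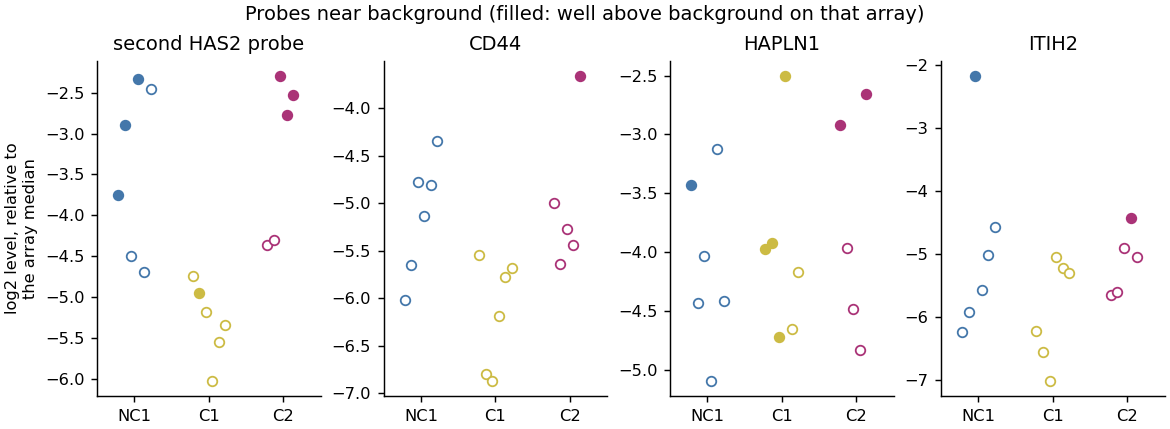
Log2 level relative to the array median of the second HAS2 probe, CD44, HAPLN1 and ITIH2, by stage, with 1 point per array; filled points were well above background on that array, and each panel has its own scale. Few points are filled, and for CD44 a single one is.

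Between the compact stages, none of the 6 valid member probes differed at an adjusted p under 0.01 in limma, and 0 of the 6 had an unadjusted p under 0.05 in the fit or in the exact permutation test. Of all valid probes, 0.0577% passed in this comparison. The largest difference among the 6 was that of TNFAIP6, 1.06 ± 0.69 higher at C1 than at NC1 (adjusted p = 0.672), and HAS2 was 0.80 ± 0.51 lower at C1 (adjusted p = 0.663). With 6 arrays a stage, differences of this size lie within the spread between arrays. They also changed with the scan day. C1 minus NC1 of TNFAIP6 was 2.48 on the first day and -0.36 on the second, that of PTX3 was 1.41 and -1.12, and that of HAS2 was 0.03 and -1.63.

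The compact arrays nonetheless varied widely in these genes. The SD of TNFAIP6 and of PTX3 between the C1 arrays (1.90 and 1.81) was above that of 99.9% of the valid probes, whose median SD at C1 was 0.33. At NC1, the SDs of HAS2, TNFAIP6 and PTX3 (0.94, 1.09 and 0.93) were above those of at least 97.7% of the valid probes. The variation was shared in part. C1 replicate 4 had the lowest TNFAIP6, PTX3 and ADAMTS1 of its stage, at -0.16, -0.31 and 2.13. C1 replicates 1, 2 and 5 had the 3 highest levels of TNFAIP6 (3.46, 4.03 and 5.06) and of PTX3 (4.43, 3.54 and 4.35). Among the calves, replicates 4 and 6 had the 2 highest levels of HAS2, TNFAIP6, PTX3 and ADAMTS1. CSPG2 and SDC4 varied less, with SDs from 0.40 to 0.42 at both compact stages.

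The genes outside the list whose profiles over the 17 arrays came nearest to those of HAS2 and CSPG2 were sought by the root mean square (RMS) of the difference between 2 profiles, each centred on its own mean, among 9132 named valid probes. For HAS2, they were TNFRSF12A, a receptor of the TNF family (0.58 log2 units), HBEGF, a growth factor of the EGF family (0.63), NFKBIA, the inhibitor that retains NF-kappa-B (0.68), BCL2L11, a promoter of cell death (0.70), and GPR183, an oxysterol receptor (0.71), where the median over all probes compared was 1.39. Their C2 minus C1 differences ran from 1.66 to 2.46. For CSPG2, they were GRB14, an adaptor of receptor tyrosine kinases (0.32), PLCB4, a phospholipase C (0.34), CSRP2, a LIM domain protein (0.34), GLCCI1 (0.34) and EPHA1, an ephrin receptor (0.35), where the median was 0.90. Their C2 minus C1 differences ran from -0.63 to -0.14. These are descriptions over samples that share a stage structure, and no test was made of them.

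Other genes of hyaluronan and proteoglycan metabolism were taken from 9 lists with 67 genes in all, of which 64 were on the array and 45 had a valid probe. At C2 against C1, 11 of the 45 were higher and 4 lower, or 33.3%, where 28.1% of all valid probes passed in either direction. At C2 against NC1, 10 were higher and 6 lower, or 35.6%, where again 28.1% of all valid probes passed. At C1 against NC1, 0 of the 45 passed in limma, and 5 had an unadjusted p under 0.05. The share of the whole lists was thus close to that of all probes, and the differences were spread over lists with unlike contents.

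Of the 8 tested genes for hyaluronan precursors and synthesis, 4 were higher at C2 than at C1 and 0 lower, with a list median of 0.97. GFPT2, which makes glucosamine-6-phosphate at the entry of the hexosamine pathway, rose by 6.66 ± 0.52, or 101-fold (adjusted p = 1.52e-08). UGP2, which makes UDP-glucose, rose by 1.46 ± 0.22 (adjusted p = 3.97e-05), and UGDH, which oxidizes it to UDP-glucuronic acid, rose by 1.11 ± 0.27 (adjusted p = 0.00289), a call that was lost when alike C2 arrays were averaged (0.94, adjusted p = 0.0307). The fourth was GNPNAT1, with 0.92 ± 0.26 (adjusted p = 0.008). The other synthase on the array, HAS3, differed by 0.10 ± 0.25 by its brighter probe (adjusted p = 0.777), and its other valid probe by 1.14 (adjusted p = 0.0616). For the breakdown of hyaluronan, 3 genes were tested. CEMIP2, a hyaluronidase of the cell surface, rose by 2.71 ± 0.32 (adjusted p = 2.71e-06), HYAL1, the lysosomal one, fell by 1.21 ± 0.19 (adjusted p = 7.56e-05), and HYAL2 differed by 0.01 ± 0.18 (adjusted p = 0.962), which turned sign with another scaling (-0.11 at the 75th percentile, -0.18 by quantile normalization). HYAL3 and SPAM1 were not well above background on any array.

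Of 5 further hyaluronan receptors tested, TLR2, a receptor of innate immunity, rose by 1.98 ± 0.49 (adjusted p = 0.00362), but the call was lost without C2 replicate 1, 3 or 5 (1.77, 1.88 and 1.69). LYVE1, known from lymphatic vessels, differed by 2.17 ± 0.64 (adjusted p = 0.0118) and HMMR, which also works at the mitotic spindle, by -2.10 ± 0.65 (adjusted p = 0.0156), and neither passed with all arrays. Without C2 replicate 2 or 3 both passed (2.67 and 2.50 for LYVE1, -2.57 and -2.49 for HMMR), and HMMR also did without replicate 4 (-2.43). Among the other inter-alpha-inhibitor chains, 1 of 5 had a valid probe. That was ITIH4, which rose by 1.17 ± 0.26 (adjusted p = 0.00131). Of the 3 tested link proteins and hyaluronan-binding proteoglycans, NCAN, which is known as a brain proteoglycan, fell by 2.45 ± 0.44 by its brighter probe (adjusted p = 0.000209), while its dimmer valid probe did not pass (-0.43, adjusted p = 0.28). HAPLN4 and ACAN, the cartilage relative of versican, differed by -0.37 ± 0.37 and -0.31 ± 0.30, with adjusted p of 0.443 and 0.431.

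Of 6 tested syndecans and glypicans other than SDC4, SDC2 rose by 1.76 ± 0.25 (adjusted p = 2.16e-05), GPC6 differed by 0.83 ± 0.49 (adjusted p = 0.189) and GPC3 by -0.74 ± 0.39 (adjusted p = 0.137). Of 3 tested versican-cleaving proteases other than ADAMTS1, 0 passed in limma: ADAMTS9 differed by 0.93 ± 0.63 by its brighter probe and by 1.95 by the other (adjusted p = 0.257 and 0.0126), ADAMTS15 by -0.13 ± 0.31 and ADAMTS5 by 0.05 ± 0.23. The mean of ADAMTS9 hides a split, since its level by the brighter probe was 0.20 and 0.66 in C2 replicates 1 and 5, below every compact array (1.22 to 2.18), and 4.97, 4.17 and 3.60 in replicates 2, 3 and 4, above every one.

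ADAMTS4, another versican-cleaving protease, was not valid because 2 of 6 C1 arrays were not well above background, and was looked at after its values were seen. It ranged from -2.19 to -0.92 at NC1 and from -5.84 to -2.005 at C1. Its levels in C2 replicates 1 to 5 were -1.87, 0.94, 5.92, 6.01 and -2.48. Replicates 2, 3 and 4 stood above all compact arrays, whereas replicate 1 lay within the range of NC1 and replicate 5 within that of C1. In the fit over all 21475 probes, C2 was higher than C1 (adjusted p = 0.0031), but not without C2 replicate 3 (adjusted p = 0.0101), and C2 against NC1 did not pass (adjusted p = 0.0485). ADAMTS20 was well above background on 3 of 5 C2 arrays and on 0 of 12 compact ones. In chondroitin sulfate assembly, 1 of 13 tested genes was higher and 2 lower. The sulfotransferase CHST15 rose by 3.27 ± 0.43 (adjusted p = 8.24e-06), the sulfotransferase CHST11 fell by 2.21 ± 0.40 (adjusted p = 0.00022), and the chain-elongating CHSY3 fell by 1.59 ± 0.30 (adjusted p = 0.000377). Of 3 tested pentraxins other than PTX3, the neuronal pentraxin receptor NPTXR rose by 4.45 ± 0.43 (adjusted p = 2.36e-07) and NPTX2 by 3.10 ± 0.33 (adjusted p = 7.52e-07), and NPTX1 differed by -0.24 ± 0.22 (adjusted p = 0.408).

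**Figure D5:**
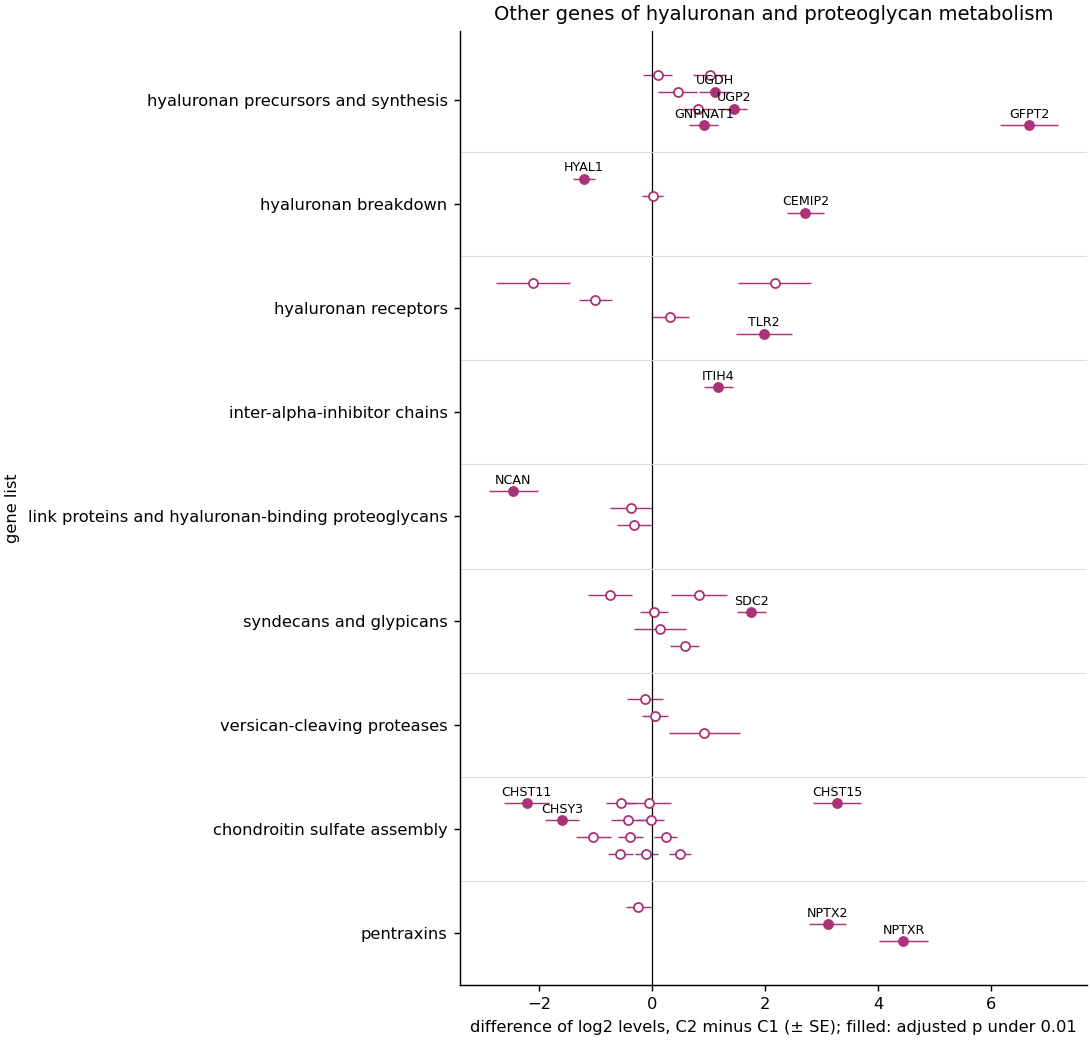
Difference of log2 levels between C2 and C1 (x axis, ± SE) of the 45 tested genes, by list (y axis), with filled, named points where the adjusted p is under 0.01. GFPT2 stands at 6.66, and the filled points of the other lists lie between -2.45 and 4.45 on both sides of 0.

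Markers of cumulus cells themselves and of other cells were compared between the stages as well. Of all valid probes, 15.3% were higher and 12.8% lower at C2 against C1, and 12.6% were lower at C2 against NC1. The marker lists are short, so counts such as 1 of 4 or 2 of 7 cannot be told apart from these shares. Of 7 tested granulosa and cumulus markers, 5 were lower at C2 than at C1 and 0 higher, and the summed signal of the 8 on the array ran from 3792 to 5437 at C1, from 3652 to 8558 at NC1 and from 1205 to 4432 at C2; FSHR, the FSH receptor, and FOXL2, a granulosa cell transcription factor, fell by 3.55 and 2.99 at C2 against C1 and remained well above background on every array. Of 7 tested leukocyte markers, 3 were higher at C2 than at C1 and 0 lower, and the summed signal of the 8 on the array ran from 7.51 to 16.5 at NC1, from 5.56 to 8.62 at C1 and from 6.93 to 34.4 at C2. Of 7 tested theca and stroma markers, 2 were higher and 0 lower at C2 than at C1, with a list median of -0.07. That median is the value of DCN by its brighter probe (adjusted p = 0.881 in limma). The other valid DCN probe rose by 4.08 (adjusted p = 1.17e-05), so the count and the median depend on the probe taken. LUM and COL1A1, of the connective tissue matrix, rose by 3.79 and 1.15, COL3A1 differed by 3.52 (adjusted p = 0.0306), and the theca markers INSL3 and CYP17A1 differed by -0.78 (adjusted p = 0.0221) and -0.25 (adjusted p = 0.312). Their summed signal ran from 163 to 293 at NC1, from 191 to 295 at C1 and from 281 to 601 at C2. Of 4 tested endothelial markers, 1 was higher and 0 lower at C2 than at C1, with a list median of -0.11. KDR rose by 3.58, whereas TEK and PECAM1 differed by -0.78 (adjusted p = 0.0101) and -0.70 (adjusted p = 0.251), TEK fell by 1.61 at C2 against NC1, and CDH5 was not well above background on any array. The sums ran from 1.18 to 2.51, from 1.1 to 1.36 and from 2.56 to 11.2. The 6 oocyte markers on the array summed to between 50.6 and 119 at NC1, 4.95 and 46.4 at C1, and 3.23 and 7.72 at C2, and 3 of 3 tested were lower at C2 than at NC1. Of the 3 red blood cell markers, the alpha globin probe, the 1 tested, fell by 4.01 at C2 against C1, and the sums ran from 27.6 to 129 at NC1, from 72.4 to 258 at C1 and from 2.18 to 51.1 at C2. The part of these marker differences in the rises of the matrix genes was not tested. In bulk samples, fewer cells of a type and less RNA per cell cannot be told apart.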

How the data were processed

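Cumulus RNA of 17 samples was labelled with Cy3 from 0.35 µg and hybridised to 1-colour Agilent bovine arrays. The authors deposited linear signal intensity per spot from Agilent Feature Extraction 10.5.1.1, with background subtracted and no scaling between arrays, and a table of log2 values scaled by each array's median. A probe's value here is log2 of the processed signal averaged over its spots, without non-uniform and outlier spots, minus the median of the array. Median signals were 64.2 to 208 intensity units, 66.2% to 82.8% of probes were well above background, and no spot was saturated; the number of arrays limits the precision. Stages were compared in limma 3.58.1 (lmFit and eBayes, R 4.3.3) in 1 fit, with Benjamini-Hochberg adjustment over 13865 valid probes and a threshold of 0.01. The fit was tested on simulated data with the spread of each stage as measured. Of 13865 probes, 100 were changed at C2 by 1 log2 unit and 100 by 2. Sizes were estimated with little bias, and 32 and 85 of the changed probes were called, so many smaller changes were missed. At this threshold, 25 calls were false, more than the nominal share. Adjusted p are thus to be read with caution, above all near 0.01. In the data, far more probes passed (28.1% at C2 against C1), so the simulation does not give the share of false calls there. Single probes were also compared by 2-sided exact permutation tests (scipy 1.17.1). Members that were not valid were fitted over all 21475 probes. The methods name 6 calves, 6 cows and 5 cows as donors, and each array was taken as 1 animal. Replicate numbers pair no samples (correlations of deviations of same-numbered arrays -0.32 to 0.25).

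The arrays lay on 6 slides, each with 1 NC1 and 1 C1 array and 5 of them with 1 C2 array, scanned on 2 days. Of each pathway list, the 3 genes with the largest C2 minus C1 difference were named, by the brightest valid probe. GNPNAT1, ADAMTS4, ADAMTS20, ITIH1, ITIH3, ITIH5, AMBP and the second HAS3 value were added after their values were seen. Members and lists were chosen with earlier results of these data known. Symbols came from the array's design or, through gene numbers and accessions, from RefSeq (ARS-UCD2.0); 4004 of the 21475 probes have no symbol here. No coordinates are given, since the files name no genome build.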

Additional observations from a re-analysis of the deposited data

How the results depend on the processing

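The counts of members called at C2 against C1 (5 higher) and C2 against NC1 (4 higher), and the absence of called members at C1 against NC1, held under each alternative run: 75th percentile or quantile scaling, normexp background, the authors' table, other filters, all spots, array or stage weights, slide, scan day or replicate number as a block, alike C2 arrays averaged, only the 2 stages, and each array left out. Without C2 replicate 2, HAS2 also passed at C2 against NC1 (1.99, adjusted p = 0.00612), which makes 5. Among the 3 stages, 5 members passed the moderated F test and 3 passed a one-factor test with unequal spreads (HAS2 and SDC4 were lost); the methods' one-factor test gave HAS2 an adjusted p of 0.0123. The replicate block changed no call of a member and gave 1.78 for HAS2 at C2 against NC1 (adjusted p = 0.0304). The numbers do not pair the samples, so the block is no paired test.

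With array weights, the CSPG2 difference was -0.97 against C1 and -1.10 against NC1 (adjusted p = 0.0532 and 0.0318), and leaving out an array moved it from -0.83 to -0.10 against C1. Normexp turned the C1 minus NC1 differences of CSPG2 (0.26) and SDC4 (0.18), neither called. Array weights turned ADAMTS15 (0.0341) and ADAMTS5 (-0.0493), the 75th percentile ADAMTS5 (-0.0773) and HYAL2 (-0.11), and quantile scaling, normexp and averaging of alike C2 arrays HYAL2 (-0.18, -0.0839 and -0.0746). Leaving out each array in turn gave signs that differed for C1 minus NC1 of PTX3 (-0.21 to 0.74), CSPG2 (-0.16 to 0.10) and HAPLN1 (-0.198 to 0.292), for C2 minus C1 of HYAL2 (-0.0909 to 0.14), ADAMTS15 (-0.32 to 0.0654), ADAMTS5 (-0.12 to 0.18) and HAPLN1 (-0.0599 to 0.515), and for C2 minus NC1 of the second HAS2 probe (-0.0709 to 0.460), CD44 (-0.211 to 0.283) and ITIH2 (-0.476 to 0.336); the cause was not tested. The probes that were not valid, most of whose values have no measured size, were fitted without each array, and the 2 likeness searches were repeated with other scalings, by choices made after seeing the data. TLR2 and UGDH lost their call with alike C2 arrays averaged (1.54 and 0.94), and TLR2 also with only the 2 stages in the fit; LYVE1 passed with array weights (2.87) and quantile scaling (2.25), and HMMR with array weights (-3.01) and stage weights. The mean over valid probes gave HAS3 0.62, NCAN -1.44 (still called) and ADAMTS9 1.44. Of the 5 genes most like CSPG2, 3 were kept by quantile scaling. The median of all valid probes at C2 minus NC1 was 0.11 with median scaling and -0.04 with the 75th percentile. The 1 probe higher and 7 lower among all valid probes at C1 against NC1 became 61 and 178 with array weights and 0 and 0 with the replicate block. Small differences of dim probes are limited by their signal over background.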
